A study of Homo sapiens with 2 samples.

Results

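The epidermal growth factor (EGF) receptor family and its ligands were examined in RNA sequencing of MDA-MB-231 cells, an established human line of triple-negative breast cancer. The set holds 10 genes, taken by name from a deposited table of 60978 genes: the receptors EGFR, ERBB2 and ERBB3 and the ligands EREG, AREG, HBEGF, TGFA, BTC, EPGN and NRG1. Each name matched 1 row. The treated culture received CEL, named only by this abbreviation in the labels, at 1 µM for 24 h, and the Control culture was incubated for 24 h with no agent named. Each group has 1 library, so no difference below has a replicate check, no test was possible, and a gene called higher or lower is so in CEL relative to Control, between these libraries. The study as a whole concerns CEL and exosomes of M1 macrophages in triple-negative breast cancer, and both libraries used here come from the cancer cells alone.

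The receptors of this family are tyrosine kinases that pair up when a ligand binds outside the cell and then drive the RAS-ERK and PI3K pathways. Their ligands are made as membrane-bound precursors and are cut free by metalloproteases, so that they can act on the cell that made them or on its neighbours. TGFA, AREG and EPGN bind EGFR, whereas HBEGF, BTC and EREG bind both EGFR and ERBB4. NRG1 binds ERBB3 and ERBB4, and ERBB2 has no known ligand of its own but is the preferred partner of the other receptors. Basal-like breast cancers commonly express EGFR and several of its ligands.

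The genes of EREG (chr4:74365145-74388749, GRCh38) and AREG (chr4:74445136-74455005) lie 56.4 kb apart on the same strand of chromosome 4 and were the members with the 2 highest folds in the CEL library. TGFA (chr2:70447284-70554193) was the ligand with the lowest fold. The RefSeq promoter windows of these 3 genes (build GRCh38.p14, 250 bases before to 50 bases after the annotated start) are printed to show how the pair that was higher and the ligand that was lower begin, 5′ to 3′ on the gene's strand. EREG covers chr4:74364895-74365194 on the plus strand, AREG covers chr4:74444886-74445185 on the plus strand and TGFA covers chr2:70553777-70554076 on the minus strand. The TGFA window belongs to a RefSeq start inside the deposited gene, downstream of its 5′ end at chr2:70554193. The EREG and AREG windows sit at the deposited gene starts. Capitals mark matches to the motifs described after the sequences.
EREG: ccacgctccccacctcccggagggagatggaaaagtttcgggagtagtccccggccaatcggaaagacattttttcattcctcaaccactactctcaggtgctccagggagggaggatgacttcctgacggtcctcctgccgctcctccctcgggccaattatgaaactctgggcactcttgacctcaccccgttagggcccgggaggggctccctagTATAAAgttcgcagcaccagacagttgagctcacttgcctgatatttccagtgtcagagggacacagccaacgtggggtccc
AREG: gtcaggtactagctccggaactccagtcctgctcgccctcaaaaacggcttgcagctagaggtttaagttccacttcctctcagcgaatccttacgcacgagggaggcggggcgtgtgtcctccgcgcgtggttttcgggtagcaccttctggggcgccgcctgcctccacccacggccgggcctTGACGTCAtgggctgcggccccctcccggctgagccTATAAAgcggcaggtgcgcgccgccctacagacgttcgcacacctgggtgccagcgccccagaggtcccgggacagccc
TGFA: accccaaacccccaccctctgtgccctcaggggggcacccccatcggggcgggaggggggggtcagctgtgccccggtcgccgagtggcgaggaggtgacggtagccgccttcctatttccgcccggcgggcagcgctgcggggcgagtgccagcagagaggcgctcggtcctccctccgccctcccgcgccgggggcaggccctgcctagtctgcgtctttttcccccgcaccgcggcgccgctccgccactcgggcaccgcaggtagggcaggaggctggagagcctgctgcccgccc

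Motifs were searched on both strands as exact letters, and no match overlapped a match to another motif in these 3 windows. The TATA box letters TATAAA began 32 bases before the EREG start and 29 bases before the AREG start. They occurred in 11.5% of the 35116 promoter windows searched. The full cAMP response element TGACGTCA was found in the AREG window, 65 bases before the start, and in 1.85% of all windows. The TGFA window held neither. The AP-1 letters TGANTCA (7.71% of windows) and the antioxidant response core TGACNNNGC (13.3% of windows) had no match in these 3 windows. Windows were found for 8 of the 9 members looked for, all except ERBB3, and NRG1 was not looked for. Of the others, the EPGN window had TATAAA 29 bases before its start, and 1 of the EGFR windows had TATAAA 146 and 36 bases before its start. That EGFR window (chr7:55109589-55109888) lies inside the gene, away from the deposited gene start at chr7:55019017. AP-1 letters were found in that EGFR window and in the ERBB2 window. A match of letters is a description and not a bound site.

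The libraries held 17199398 reads in genes for CEL and 14821148 for Control. Whole reads behind each value were recovered from the deposited FPKM (reads scaled by gene length and by library total), and the intervals given are exact 95% intervals of those reads, which cover counting error only. The counting floor was set at 3 reads, which for a gene of 1 kb is 0.174 FPKM in CEL and 0.202 FPKM in Control. A count of 0 is therefore not an absence. A gene was taken as measured where either library reached 1 FPKM, and its fold is log2((CEL FPKM + 1)/(Control FPKM + 1)), a scale that understates the change of low genes. The libraries had the profile of this line: CD44 stood at 1024 FPKM in CEL and 928 FPKM in Control and VIM at 349.9 and 399 FPKM, while ESR1 and PGR, the steroid receptors that triple-negative tumours lack, had 0 reads in both. Of 8 markers of mesenchymal breast cancer lines only SPARC was under 1 FPKM. ITGB1 of this list was lower, at 1166 FPKM in CEL and 1817 FPKM in Control (ratio 0.642, 0.631 to 0.653). AXL (519 FPKM in CEL and 401 FPKM in Control) and CAV2 (237 and 201 FPKM) were higher within 1.5-fold. The 11 luminal markers summed to 1225 FPKM in CEL and 1043 FPKM in Control, of which the keratins KRT8, KRT18 and KRT19 made up most. KRT18 was higher, at 231 FPKM in CEL and 145 FPKM in Control, and EPCAM was lower, at 8.97 and 17.2 FPKM. XBP1 (38.4 FPKM in CEL and 56.9 FPKM in Control) and GATA3 (8.60 and 10.8 FPKM) were lower within 1.5-fold. Of 11 leukocyte and macrophage markers, 9 were under 1 FPKM in both libraries, LYZ, FCER1G, CD163 and CD86 had 0 reads in both, and the whole list summed to 3.85 FPKM in CEL and 4.87 FPKM in Control. The others were CSF1R (1.81 FPKM in CEL and 2.78 FPKM in Control) and CD14 (1.36 and 1.92 FPKM). The 5 endothelial markers were all under 1 FPKM, and the 8 fibroblast markers summed to 26.0 FPKM in CEL and 38.6 FPKM in Control. Of these, COL1A1 was lower, at 9.61 FPKM in CEL and 25.03 FPKM in Control, and LUM was higher, at 3.29 FPKM in CEL and 1.73 FPKM in Control. PDGFRB (12.8 FPKM in CEL and 11.4 FPKM in Control) did not differ detectably, with a ratio of 1.13 (0.945 to 1.34), and the other 5 were under 1 FPKM. From bulk RNA, fewer cells with a transcript and less of it per cell cannot be told apart.

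Within the family the libraries differed in both directions: 2 ligands were higher in the CEL library, 1 ligand and 2 receptors, TGFA, ERBB2 and ERBB3, were lower and lay next to the 1.5-fold mark on the log2(FPKM + 1) scale, and the rest were close in level. Of 9 measured members, 2 were at least 1.5-fold higher, EREG and AREG, where 8.97% of the 13745 measured genes were, and 0 were at least 1.5-fold lower, where 10.2% of measured genes were. EREG alone was at least 2-fold higher (2.70% of measured genes), and 0 members were at least 2-fold lower (3.24%). The counting interval of the ratio lay above 1 for 5 members, EREG, AREG, HBEGF, NRG1 and EGFR, and below 1 for 3, ERBB2, ERBB3 and TGFA. Over all measured genes the same held for 29.9% above and 29.1% below, so at this depth an interval that leaves out 1 is common. The median log2 fold was 0.26 over the 9 measured members and 0.00 over all measured genes. EPGN was the member that did not reach 1 FPKM.

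**Figure D1:**
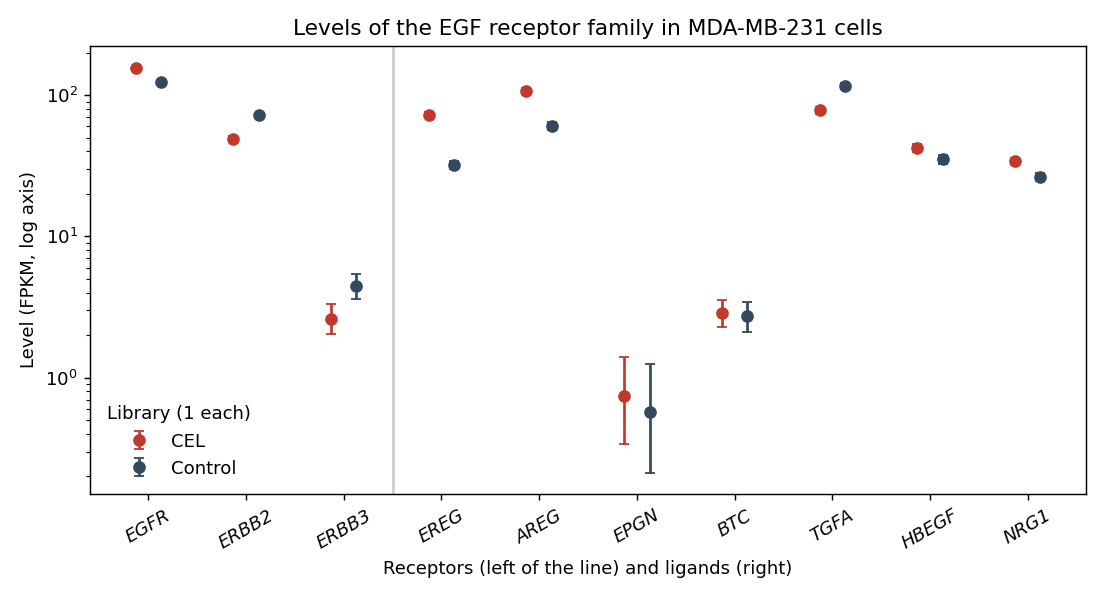
Level of each family gene in the CEL library (red) and the Control library (dark), in FPKM on a log axis, with exact 95% Poisson intervals of the reads; each point is 1 library. EREG and AREG sit higher in CEL, TGFA, ERBB2 and ERBB3 sit higher in Control, and BTC and EPGN have overlapping intervals.

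Among the receptors, EGFR (ENSG00000146648; chr7:55019017-55211628) had the highest FPKM of the family in both libraries with the deposited lengths, though in Control its interval overlapped that of TGFA, and per longest transcript or per all exons AREG was first. It stood at 156 FPKM (8063 reads) in CEL and 123 FPKM (5461 reads) in Control, a ratio of CEL to Control of 1.27 (1.23 to 1.32). ERBB2 (ENSG00000141736; chr17:39687914-39730426), which encodes HER2, stood at 48.8 FPKM (1823 reads) in CEL and 71.7 FPKM (2308 reads) in Control, a ratio of 0.681 (0.640 to 0.724). The HER2 transcript was therefore well above the counting floor in a line classed as HER2-negative, a class that rests on protein level and gene copies. ERBB3 (ENSG00000065361; chr12:56076799-56103505), whose own kinase is weak and which signals through its partners, was low, at 2.62 FPKM (68 reads) in CEL and 4.43 FPKM (99 reads) in Control. Its ratio of 0.592 (0.428 to 0.814) was the lowest in the family. ERBB4, the fourth receptor of the family, had 0 reads in CEL and 1 read in Control, so it was at or under the floor in both.

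The receptors thus differed in opposite directions, and the balance between them was not the same in the libraries. There were 3.20 FPKM of EGFR for each FPKM of ERBB2 in CEL and 1.71 in Control, a difference of 1.87-fold (1.74 to 2.01) in this within-library ratio, which no scaling of whole libraries can alter. EGFR made up 75.2% of the summed FPKM of EGFR, ERBB2 and ERBB3 in CEL and 61.7% in Control. The summed FPKM of these receptors was close, at 208 in CEL and 199 in Control. ERBB2 and ERBB3 kept a similar ratio, with 18.6 FPKM of ERBB2 for each FPKM of ERBB3 in CEL and 16.2 in Control (1.15-fold, 0.831 to 1.60). By annotation 7.41% of the exonic bases of ERBB2 are shared with genes on the other strand, MIEN1 and PGAP3, and 1.49% of those of EGFR with EGFR-AS1. Which strand setting was used for counting is not stated in the labels. Whether such reads were counted for either gene or for neither is therefore not known.

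EREG (ENSG00000124882), epiregulin, had the highest fold in the family. It stood at 72.7 FPKM (2709 reads) in CEL and 32.0 FPKM (1029 reads) in Control, a ratio of 2.27 (2.11 to 2.44). Its log2 fold of 1.16 ranked 221 of 13745 measured genes from the highest, so 1.60% of measured genes had a higher one. AREG (ENSG00000109321), amphiregulin, a ligand of mammary duct growth, stood at 107 FPKM (1808 reads) in CEL and 60.6 FPKM (884 reads) in Control, a ratio of 1.76 (1.63 to 1.91). Its log2 fold of 0.81 ranked 610, and 4.43% of measured genes had a higher one. EREG was higher relative to AREG as well, with 0.680 FPKM of EREG for each FPKM of AREG in CEL and 0.528 in Control (1.29-fold, 1.15 to 1.44). The pair therefore shared the direction, and the sizes differed beyond counting error.

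TGFA (ENSG00000163235), transforming growth factor alpha, went the other way. It stood at 77.9 FPKM (1482 reads) in CEL and 116 FPKM (1897 reads) in Control, a ratio of 0.673 (0.629 to 0.721) and a log2 fold of −0.56. This placed TGFA, ERBB2 (log2 fold −0.55) and ERBB3 (−0.58) just inside the 1.5-fold mark of −0.58 on the same scale with its pseudocount, which ERBB3 missed in the third decimal. Without a pseudocount the FPKM ratio of ERBB3, a log2 of −0.76, is past the mark. Whether they are counted as lower therefore depends on the pseudocount, the scaling of the libraries and the length trend. TGFA passed the mark in 4 of 8 alternatives and ERBB2 in 2 of 8. ERBB3 passed it in 5 of the 7 that gave it a value. All kept a negative sign in each alternative that gave a value. The log2 folds of TGFA over 8 alternatives lay between −0.69 and −0.54.

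HBEGF (ENSG00000113070; chr5:140332843-140346603), the heparin-binding ligand, was close in level, at 42.3 FPKM (1007 reads) in CEL and 35.2 FPKM (722 reads) in Control, a ratio of 1.20 (1.09 to 1.32). NRG1 (ENSG00000157168; chr8:31639222-32855666), neuregulin 1, stood at 34.0 FPKM (1265 reads) in CEL and 26.4 FPKM (849 reads) in Control, a ratio of 1.28 (1.18 to 1.40). Both were higher beyond counting error and within 1.5-fold. BTC (ENSG00000174808; chr4:74744759-74794523), betacellulin, was low and did not differ detectably at this depth, at 2.87 FPKM (81 reads) in CEL and 2.72 FPKM (66 reads) in Control, a ratio of 1.06 (0.755 to 1.49). EPGN (ENSG00000182585; chr4:74308470-74316789), epigen, had 9 reads in CEL and 6 in Control, 0.740 and 0.573 FPKM, and its ratio of 1.29 (0.411 to 4.41) is not resolved.

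The remaining ligands of the family were low. EGF itself stood at 5.51 FPKM (192 reads) in CEL and 5.16 FPKM (155 reads) in Control, a ratio of 1.07 (0.859 to 1.33). NRG2 had 15 reads in CEL and 22 in Control, NRG3 had 0 in both, and NRG4 had 7 in CEL and 1 in Control, a ratio of 6.03 (0.775 to 272). Of these, NRG4 shares 38.1% of its exonic bases with FBXO22 on the other strand.

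**Figure D2:**
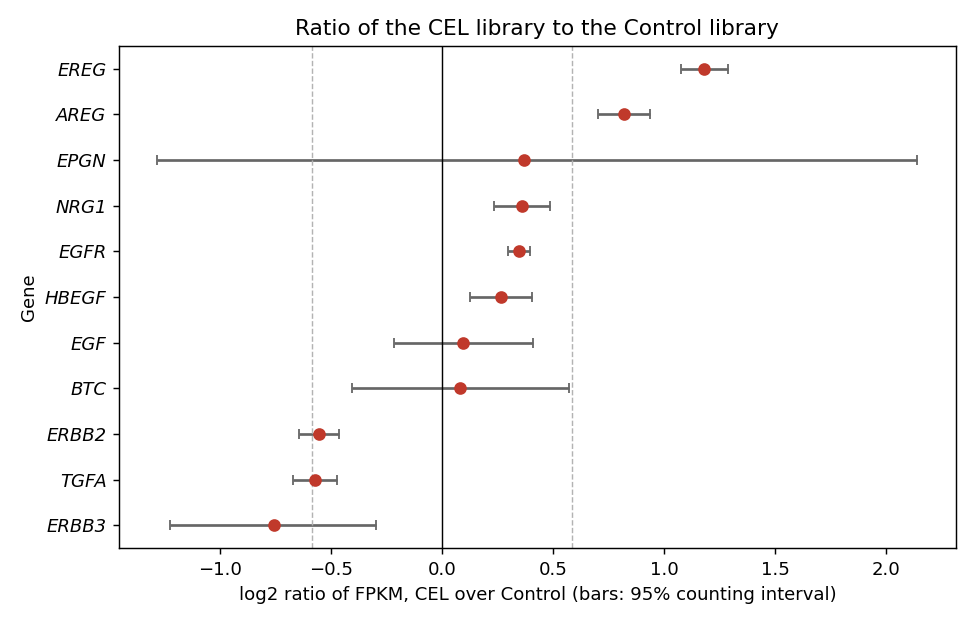
Log2 ratio of FPKM, CEL over Control, for the 10 family members and EGF, each with its exact 95% counting interval; dashed lines mark 1.5-fold. EREG (ratio 2.27) and AREG (1.76) lie right of the upper line, ERBB3 (0.592) lies left of the lower line with an interval that crosses it, ERBB2 (0.681) and TGFA (0.673) lie between the lower line and 0, and the intervals of EPGN, EGF and BTC hold 0.

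The order of the levels differed between the libraries. In CEL it ran EGFR, AREG, TGFA, EREG, ERBB2, HBEGF, NRG1, BTC, ERBB3 and EPGN, and the neighbours TGFA and EREG, and BTC and ERBB3, had overlapping counting intervals. In Control it ran EGFR, TGFA, ERBB2, AREG, HBEGF, EREG, NRG1, ERBB3, BTC and EPGN, and EGFR and TGFA, and HBEGF and EREG, overlapped. AREG was thus the leading ligand in CEL and TGFA in Control. Levels of different genes rest on the 1 length per gene that was deposited. That length was the mean over annotated transcripts for 89.3% of genes whose coordinates match GENCODE 29, and it is shorter than the longest transcript of each member. With reads taken per longest transcript, AREG was first of the members in both libraries, at 84.8 FPKM in CEL and 48.1 FPKM in Control, and EGFR was second at 47.7 and 37.5 FPKM. TGFA was then at 20.0 FPKM in CEL and 29.7 FPKM in Control. This alternative, chosen after the values were seen, changes the order between genes and leaves each gene's ratio between the libraries as it was.

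The makeup of the ligand pool differed between the libraries as well. The 7 ligands summed to 337 FPKM in CEL and 273 FPKM in Control. TGFA made up 23.1% of this sum in CEL and 42.3% in Control, AREG 31.7% in CEL and 22.2% in Control, and EREG 21.5% in CEL and 11.7% in Control. HBEGF (12.5% in CEL and 12.9% in Control) and NRG1 (10.1% in CEL and 9.68% in Control) held nearly the same shares. For each FPKM of TGFA there were 1.37 FPKM of AREG in CEL and 0.524 in Control, a 2.62-fold difference (2.35 to 2.91), and 0.933 FPKM of EREG in CEL and 0.277 in Control, a 3.37-fold difference (3.05 to 3.72). Per longest transcript the TGFA share was 11.2% in CEL and 23.8% in Control and the AREG share 47.7% in CEL and 38.5% in Control, so the directions were the same and the leading ligand in Control was AREG.

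**Figure D3:**
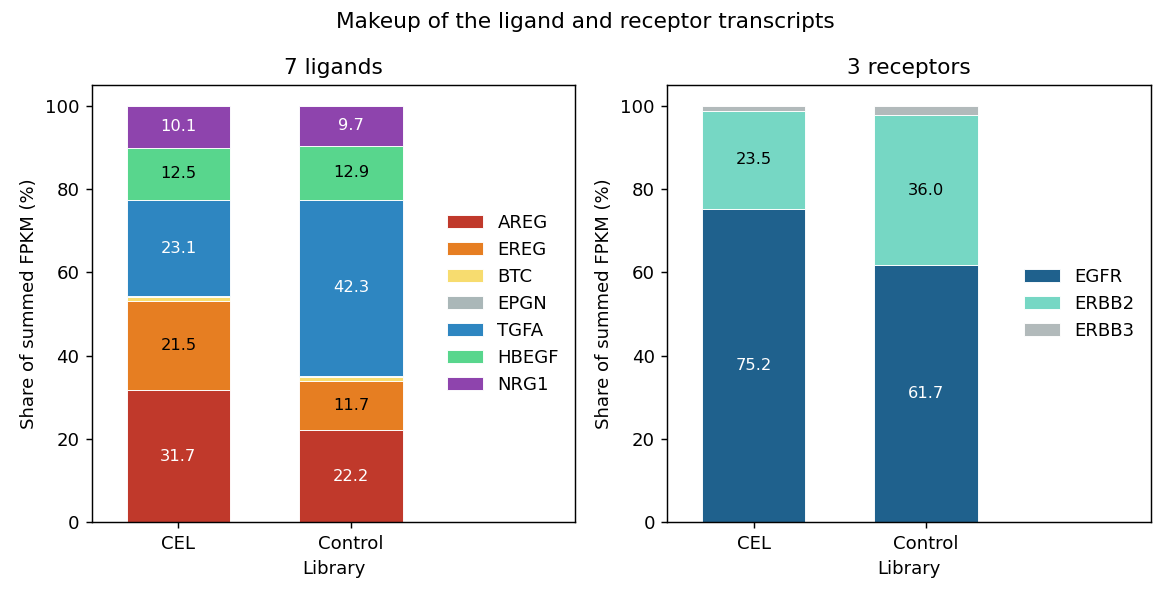
Share of the summed FPKM taken by each of the 7 ligands (left) and the 3 receptors (right), in percent, in the CEL and the Control library. TGFA takes 23.1% of the ligand sum in CEL and 42.3% in Control, and EGFR takes 75.2% of the receptor sum in CEL and 61.7% in Control.

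EREG, AREG, EPGN and BTC lie in a row on chromosome 4, next to a row of CXC chemokine genes, so the stretch from the start of CXCL8 to the end of BTC (chr4:73740541-74794523, 1054 kb) was described gene by gene. Of its 14 protein-coding genes, 8 were measured. The 4 chemokines among them were lower in the CEL library. CXCL8 stood at 6.05 FPKM in CEL and 100.2 FPKM in Control, CXCL1 at 4.12 and 41.5 FPKM, CXCL3 at 0.957 and 5.81 FPKM and CXCL2 at 5.17 and 22.5 FPKM. MTHFD2L, a mitochondrial folate enzyme between the chemokines and the ligands, was at 8.52 FPKM in CEL and 6.37 FPKM in Control, a ratio of 1.34 (1.07 to 1.67). The measured ligands that follow were EREG, AREG and BTC, with log2 folds of 1.16, 0.81 and 0.06. The change of direction thus fell between CXCL2 and MTHFD2L, and the CXCL2 gene ends 266 kb before EREG starts. For each FPKM of CXCL8 there were 12.0 FPKM of EREG in CEL and 0.320 in Control, a 37.6-fold difference (30.3 to 46.9). In this pair CXCL8 was 16.6-fold lower in CEL, the lowest fold of all 13745 measured genes, and EREG was 2.27-fold higher. EPGN, 48.4 kb before EREG, was under 1 FPKM in both libraries, so the high levels in this row belonged to EREG and AREG.

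**Figure D4:**
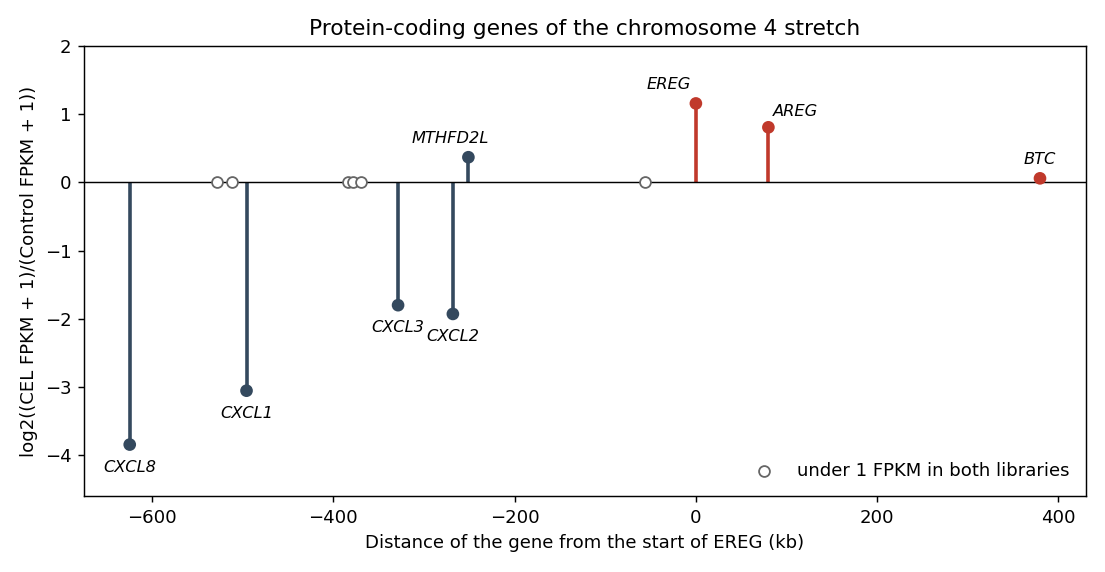
Log2((CEL FPKM + 1)/(Control FPKM + 1)) of the 14 protein-coding genes from CXCL8 to BTC, by distance of each gene from the start of EREG in kb; red, ligands, dark, other genes, open circles, genes under 1 FPKM in both libraries, drawn at 0 (EPGN is the open circle nearest to EREG). The chemokines CXCL8, CXCL1, CXCL3 and CXCL2 lie below 0 and EREG (1.16) and AREG (0.81) above it.

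Genes that act around the receptors were mostly close in level between the libraries, and each count is to be read against the 8.97% of all measured genes that were at least 1.5-fold higher and the 10.2% that were lower. For ligand shedding, 11 of 11 listed genes were measured, 0 were at least 1.5-fold higher and 1 lower, with a median log2 fold of 0.02. The lower gene was RHBDF2, an iRhom that carries the sheddase ADAM17 to the cell surface, at 50.3 FPKM in CEL and 76.4 FPKM in Control (ratio 0.659, 0.607 to 0.715). RHBDF1, the other iRhom listed, stood at 47.0 FPKM in CEL and 46.3 FPKM in Control (ratio 1.01, 0.923 to 1.11). ADAM10, the other main sheddase of this family, stood at 236 FPKM in CEL and 319 FPKM in Control and ADAM9 at 133 FPKM in CEL and 177 FPKM in Control, both within 1.5-fold. ADAM12, a metalloprotease that cuts HBEGF, was low at 5.59 FPKM in CEL and 4.21 FPKM in Control. ADAM17 itself stood at 25.6 FPKM in CEL and 22.9 FPKM in Control (ratio 1.12, 1.03 to 1.21). Over the shedding list, the counting interval of the ratio lay above 1 for 5 genes and below 1 for 4. Of all measured genes, 29.9% lay above and 29.1% below. The median of this list turned negative under 4 alternatives.

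Of 17 listed inhibitors, ubiquitin ligases and regulators of receptor breakdown, all measured, 1 was at least 1.5-fold higher and 0 lower, with a median log2 fold of 0.21. The higher one was UBASH3B, at 72.9 FPKM in CEL and 38.4 FPKM in Control (ratio 1.90, 1.75 to 2.06), a phosphatase that binds the ligase CBL and is known to slow the breakdown of EGFR, so it is not an inhibitor as most of the list is. ERRFI1, also called MIG6, a feedback inhibitor that binds the EGFR kinase, stood at 468 FPKM in CEL and 319 FPKM in Control (ratio 1.47, 1.42 to 1.51). LRIG1, a membrane protein that promotes breakdown of the receptors, stood at 3.86 FPKM in CEL and 6.29 FPKM in Control (ratio 0.614, 0.493 to 0.763). It lay just inside the 1.5-fold mark on the log2(FPKM + 1) scale and passed it in 4 of 8 alternatives. Over the list, 2 genes were lower on the TPM scale and with CEL centred on the median ratio. With a pseudocount of 0.1 FPKM or upper quartile scaling 1 was lower, and with the length trend removed 2 were higher. The kinase TNK2, which binds activated EGFR, stood at 19.6 FPKM in CEL and 29.2 FPKM in Control.

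Among adaptors and proximal effectors 18 of 19 were measured, with 1 at least 1.5-fold higher, 1 lower and a median log2 fold of −0.09. NCK1, an adaptor to the actin machinery, stood at 17.9 FPKM in CEL and 11.1 FPKM in Control, and GAB2, a docking protein, at 4.17 FPKM in CEL and 7.03 FPKM in Control. With a pseudocount of 5 FPKM neither passed the mark, and with the length trend removed 0 adaptors were higher. The related GAB1 stood at 5.81 FPKM in CEL and 8.76 FPKM in Control, within 1.5-fold on the log2(FPKM + 1) scale. Without a pseudocount its ratio of 0.663 (0.531 to 0.827) lay just past the mark. SHC1, which links the receptors to GRB2 (104 FPKM in CEL and 72.8 FPKM in Control), was within 1.5-fold. For endocytosis and sorting of the receptors 19 of 19 were measured, with 1 higher, 0 lower and a median of 0.00. The higher one was AP2S1, the small subunit of the clathrin adaptor AP-2, at 187 FPKM in CEL and 104 FPKM in Control, and its log2 fold of 0.84 was 0.36 with the trend of fold with gene length removed. The others named by size were DNM2 (117 FPKM in CEL and 165 FPKM in Control), which pinches vesicles off, and the clathrin coat partners EPS15 (37.6 and 52.9 FPKM) and EPN2 (10.6 and 15.2 FPKM).

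Of 17 transcripts known to be induced by ERK below the receptors, 15 were measured, 3 were at least 1.5-fold higher (8.97% of all measured genes were) and 0 lower (10.2%), with a median log2 fold of 0.23. On the TPM scale and with CEL centred on the median ratio, 2 were lower. The transcription factor MYC stood at 76.7 FPKM in CEL and 45.1 FPKM in Control (ratio 1.70, 1.58 to 1.83). DUSP5, a nuclear phosphatase of ERK, stood at 27.3 FPKM in CEL and 16.3 FPKM in Control (ratio 1.68, 1.48 to 1.90). The immediate early gene IER2 stood at 9.36 FPKM in CEL and 5.49 FPKM in Control. FOSL1, the AP-1 subunit FRA-1, was within 1.5-fold at 432 FPKM in CEL and 289.9 FPKM in Control (ratio 1.49, 1.44 to 1.54). Named after their values were seen, the feedback inhibitors SPRY1 and DUSP4 were lower, inside the mark on the log2(FPKM + 1) scale. SPRY1 stood at 8.41 FPKM in CEL and 12.9 FPKM in Control (ratio 0.652, 0.551 to 0.771), a log2 fold of −0.56. Without a pseudocount the FPKM ratio of SPRY1, a log2 of −0.62, is past the mark. DUSP4 stood at 28.3 FPKM in CEL and 42.0 FPKM in Control (ratio 0.674, 0.636 to 0.714). Of others also named after their values were seen, SPRED1 was lower (ratio 0.823, 0.764 to 0.886). DUSP6 (1.30, 1.19 to 1.42) and SPRY2 (1.19, 1.06 to 1.32) were higher within the mark. The intervals of SPRY4 (1.09, 0.991 to 1.20) and SPRED2 (0.954, 0.873 to 1.04) held 1. Over the 15 measured genes of this list, the counting interval lay above 1 for 9 and below 1 for 4. Of all measured genes, 29.9% lay above and 29.1% below. Among the 17 inhibitors, ligases and regulators of receptor breakdown it lay above 1 for 8 and below 1 for 4. Among the 18 measured adaptors and effectors it lay above 1 for 4 and below 1 for 9. Among the 19 endocytosis and sorting genes it lay above 1 for 6 and below 1 for 6.

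**Figure D5:**
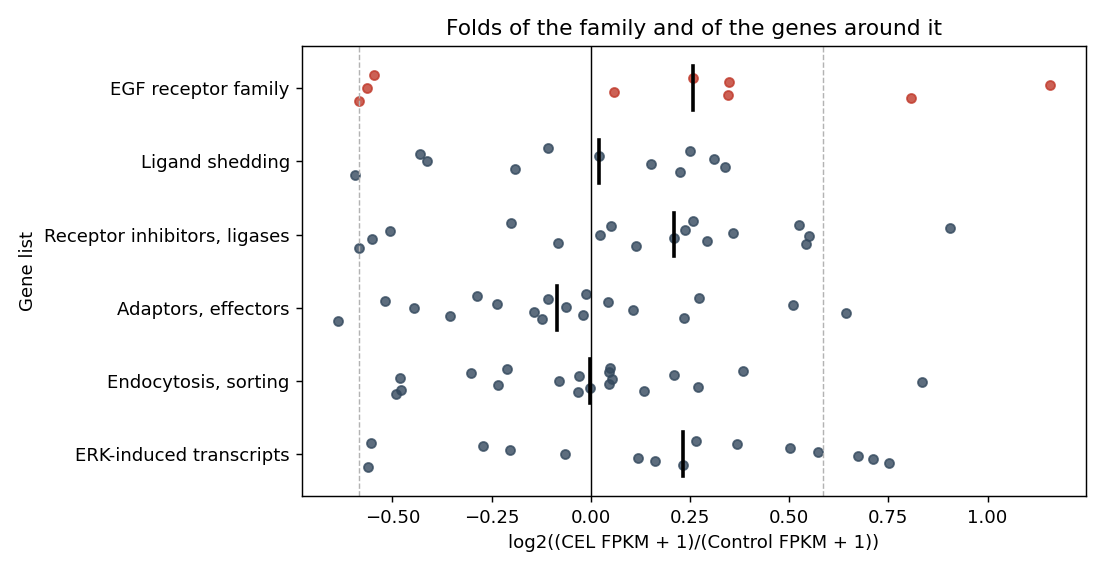
Log2((CEL FPKM + 1)/(Control FPKM + 1)) of each measured gene in the family (top row, red) and in 5 lists of genes around the receptors; black bars are medians, dashed lines mark 1.5-fold, and vertical scatter within a row only separates points. EREG and AREG are the family's points right of the upper line, and 0 family points pass the lower one.

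Across 8170 protein-coding genes at 10 FPKM or more the fold was lower for longer genes (Spearman −0.295, over genes that are not independent). The trend at the length of AREG, 984 bases, was 0.18 on the log2 scale, and the AREG fold less this trend was 0.63. For EREG, at 2167 bases, the trend was −0.03 and the fold less the trend 1.19, and for TGFA, at 1106 bases, 0.13 and −0.69. With the trend removed EREG and AREG therefore stayed past 1.5-fold. The cause of the trend was not tested.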

How the data were processed

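RNA of 1 CEL-treated and 1 Control culture of MDA-MB-231 cells was measured. Per the labels' protocols, RNA was extracted with TRIzol and libraries were made with the NEBNext Ultra kit. HTSeq 0.5.4 and the build GRCh38 were used, per the submitters' processing notes. The aligner, annotation release and strand setting were not given in the sources used here. The authors deposited FPKM values for each library, used as given, with 1 length per gene. For 68.7% of genes above 0, FPKM times length was a whole multiple of 1 read in both libraries (tolerance 1e-06), and for 31.3% it was so with the length 1 base longer. This gave the reads. The 354 rows without a gene name, 0.265% of CEL reads and 0.298% of Control reads, were left out of comparisons.

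With 1 library per group, genes were described by size (pseudocount 1 FPKM, filter 1 FPKM, marks of 1.5-fold and 2-fold) and by exact intervals: Poisson for levels, conditional binomial for ratios, conditional odds ratio for within-library ratios. Gene types and exon overlaps came from GENCODE 29, which gives the same coordinates for 2 of 10 members, and promoters from RefSeq. Other list genes named were the up to 4 largest absolute folds in each list, with marker levels, ADAM17, RHBDF1 and ERK feedback inhibitors added. The measured protein-coding genes between CXCL8 and BTC were named too. Members and lists were chosen with earlier results of these data known. Scripts were tested on simulated data. Python 3.11.15, numpy 2.4.6, pandas 2.3.3, scipy 1.17.1, statsmodels 0.14.6 and matplotlib 3.10.9 were used.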

Additional observations from a re-analysis of the deposited data

How the results depend on the processing

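EREG and AREG were at least 1.5-fold higher in CEL, and EREG at least 2-fold higher, under each of the 8 alternatives. The median log2 fold of the measured members stayed between 0.19 and 0.34, and 0 members were at least 2-fold lower under any. The count of members at least 1.5-fold lower, 0 as reported, was 1 with a pseudocount of 0.1 FPKM (ERBB3), 3 on the TPM scale and 3 with CEL centred on the median ratio (ERBB2, ERBB3 and TGFA), 2 with upper quartile scaling and 2 with the length trend removed (ERBB3 and TGFA), because these members lie next to the mark. Over all measured genes, 10.2% were at least 1.5-fold lower as reported, 13.5% as TPM, 14.1% with a pseudocount of 0.1 FPKM, 11.6% with CEL centred, 10.9% with upper quartile scaling and 14.6% with the length trend removed. ERBB3 and BTC have no value with a filter at 5 FPKM.

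Counts over all genes moved more. Genes at least 1.5-fold higher and lower in CEL numbered 1233 and 1398 as reported, 604 and 490 with a pseudocount of 5 FPKM, 872 and 744 with a filter at 5 FPKM, and 681 and 2000 with the length trend removed, where higher genes made up 25.4% of both, against 46.9% as reported. Those at least 2-fold higher and lower numbered 371 and 446 as reported, 590 and 880 with a pseudocount of 0.1 FPKM, 110 and 85 with 5 FPKM, 214 and 208 with a filter at 5 FPKM, 458 and 712 on the TPM scale, and 141 and 865 with the length trend removed. The higher share of these was 45.4% as reported, 56.4% with a pseudocount of 5 FPKM and 14.02% with the length trend removed. No paired analysis was possible because each group has 1 library. Depth limits EPGN, with 9 reads in CEL and 6 in Control, and BTC, with 81 and 66.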
